A study of Caenorhabditis elegans with 10 samples.

Results

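Condensins are ring-shaped complexes that compact and separate chromosomes, and in C. elegans a specialised condensin also carries out dosage compensation. The genes described here are the 10 that encode the core subunits of these complexes and the factor that brings the specialised one to the X chromosome. They are smc-4, mix-1, dpy-27, dpy-26, dpy-28, capg-1, kle-2, hcp-6, capg-2 and sdc-2. They were selected by name and not by a rule on measured values, though earlier results of these data were known. Each matched 1 of 46536 genes in the table. Of the 10, 9 were among the 6833 genes with at least 1 CPM, a depth-scaled read count, in at least 5 libraries, which were tested.

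Each condensin holds a pair of SMC ATPases, a kleisin that closes the ring and a pair of HEAT-repeat subunits. MIX-1, the worm SMC2, serves in all condensins, and SMC-4 is its partner in condensin I and condensin II. Condensin I adds the kleisin DPY-26 and the HEAT subunits DPY-28 and CAPG-1, and condensin II adds the kleisin KLE-2 and the HEAT subunits HCP-6 and CAPG-2. The dosage compensation form, condensin IDC, is condensin I with SMC-4 replaced by its relative DPY-27. In somatic cells of hermaphrodites SDC-2 recruits it to X, where it lowers transcription, whereas X is kept low in germ cells by other means that involve chromatin modification.

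RNA was taken from germline tumours cut out of day 1 adults of the Bristol strain, grown as synchronised larvae for 48 h at 25 °C. Every animal carried gld-2(q497) gld-1(q485), mutations that together block proper meiotic entry, so that germ cells divide in either state of the Notch receptor GLP-1. In the 5 GLP-1 ON libraries the receptor was held active by the gain-of-function allele glp-1(ar202), and in the 5 GLP-1 OFF libraries it was removed by the null allele glp-1(q175). Neither group is a wild-type germline, and each state rests on 1 receptor allele. The design text calls the 5 libraries of a group biological replicates.

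Levels are in CPM, the authors' unit, in which the reads assigned to genes in a library are scaled to a common total of 1 M. Depth was 17.5 to 38.5 M reads in ON and 18.7 to 29.3 M reads in OFF. Genes for rRNA took 40.1% to 49.6% of reads in ON and 38.96% to 50.8% in OFF. The receptor target sygl-1 was at 13.7 to 29.6 CPM in ON against 0.825 to 1.74 CPM in OFF, so the libraries match their labels. All 10 germ cell marker genes were tested and summed to 1986 to 2862 CPM in ON against 1939 to 2858 CPM in OFF. A bulk library cannot tell fewer expressing cells from less RNA per cell, and this holds for every difference below.

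A gene was called at a limma adjusted p under 0.05. In the reported fit a single member was called, and it was the one that defines the dosage compensation form. Transcripts of dpy-27 fell to a mean of 0.711 ± 0.259 CPM in ON, against 4.16 ± 0.908 CPM in OFF (SD, n = 5 each). The other 8 tested members did not pass the test in this fit. For hcp-6 and kle-2 this depended on library scaling, as given below. Mean levels of the 8 in ON lay between 0.843 and 1.06 times those in OFF. Among all tested genes 19.1% were called in either direction, 6.7% higher and 12.4% lower, so 1 lower call among 9 members is near the background share and the count says nothing particular about condensin genes.

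**Figure D1:**
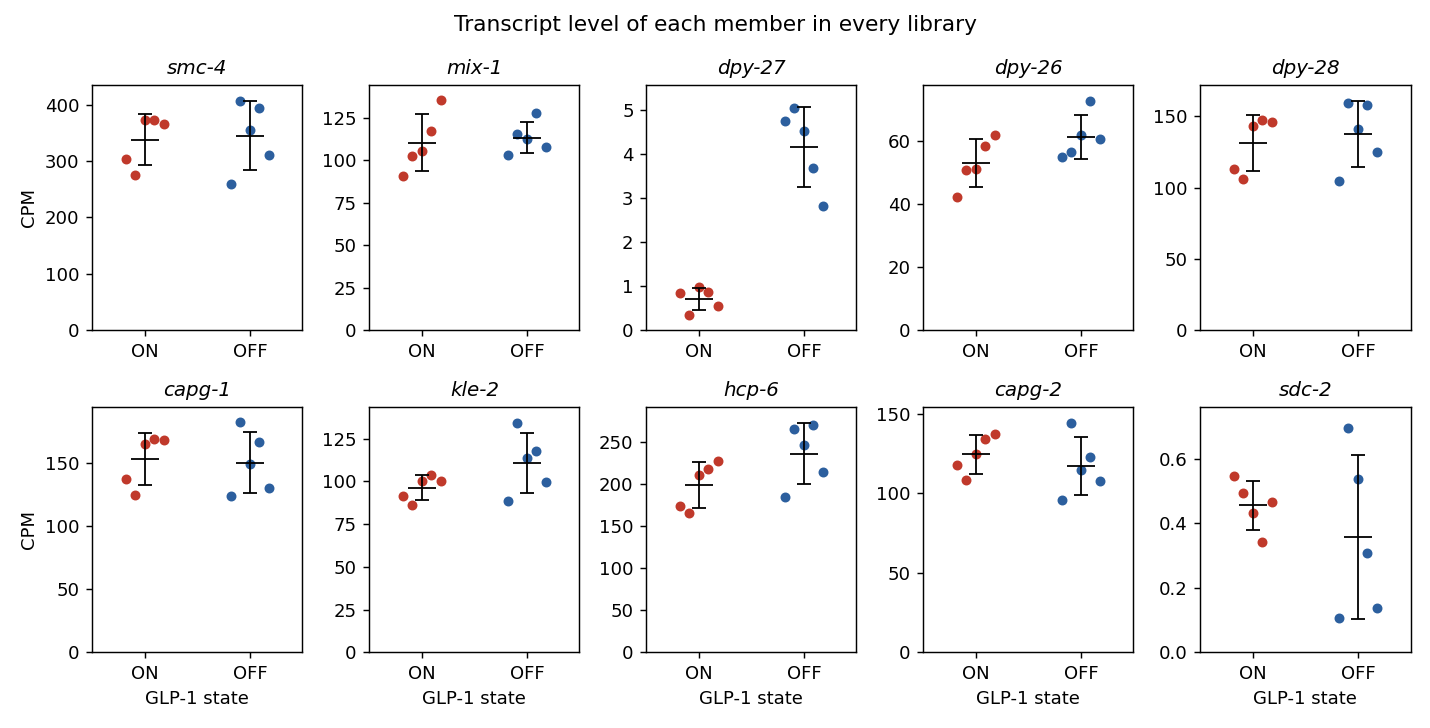
CPM of each of the 10 genes in the 5 GLP-1 ON libraries (red, left) and the 5 GLP-1 OFF libraries (blue, right), with the mean and SD in black and every axis starting at 0. The dpy-27 panel is the one in which the groups stand apart, with all ON libraries under 1 CPM and all OFF libraries at 2.81 CPM or more.

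The dpy-27 gene (WBGene00001086, chromosome III, 3813018 to 3819679, minus strand, WBcel235) has 12 exons and a transcript of 5303 bases in the Ensembl annotation. Its level was 0.837, 0.343, 0.972, 0.857 and 0.545 CPM in ON replicates 1 to 5, and 4.75, 5.04, 4.52, 3.68 and 2.81 CPM in OFF replicates 1 to 5. The lowest OFF library was above the highest ON library, so the groups did not overlap. Among all tested genes 14.9% had no overlap in either direction, with 5.01% higher and 9.92% lower in ON. The values rest on few reads, 9 to 36 per library in ON and 61 to 118 per library in OFF, or 104 and 492 reads in all.

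On the log2(CPM + 1) scale the dpy-27 difference, ON minus OFF, was -1.59 (SE 0.14, 95% interval -1.87 to -1.30, limma adjusted p = 3.8e-08 over 6833 genes). The mean level in ON was 0.171 times that in OFF. Exact permutation of the library labels gave p = 0.00794, two-sided, the smallest value that 5 against 5 allows. Only 20 tested genes had a difference that low, dpy-27 included.

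The level filter had a part in this call, since dpy-27 reached 1 CPM in the OFF libraries and in no ON library. There were 36 tested genes with no ON library at 1 CPM, and all 36 (100%) were called lower. With no filter, over 21677 genes, the adjusted p of dpy-27 was 4.3e-06, at the same difference. In that fit 5.78% of genes were called, 2.44% higher and 3.34% lower. The size of the difference depends on the scale, because the gene is near the added 1 CPM. The edgeR test on reads recovered from the CPM gave -2.50 (adjusted p = 4.2e-06), and an added 5 CPM gave -0.68.

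The libraries carry numbers that form 3 runs, a grouping made here from the numbers alone. The first holds ON replicate 1 with OFF replicates 1 and 2. The second holds ON replicate 2 with OFF replicates 3 and 4. The third holds ON replicates 3 to 5 with OFF replicate 5. Every within-run difference thus rests on 1 library of ON or of OFF, and the runs are unbalanced between the states. Within these runs the dpy-27 difference was -1.68, -1.92 and -1.10. Since the groups did not overlap, the direction could not differ between runs and adds no support. Some uncalled members changed sign between runs, such as smc-4 at -0.10, -0.44 and 0.26.

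The X-recruiting factor was close to absent. The sdc-2 gene (WBGene00004746, chromosome X, 11522707 to 11533450, plus strand, 19 exons) was at 0.343 to 0.546 CPM in ON against 0.107 to 0.695 CPM in OFF, which is 6 to 18 reads and 2 to 16 reads per library. The OFF range enclosed the ON range. It did not reach the level needed for testing, and the exact permutation test gave p = 0.365 for it, two-sided. An annotated antisense RNA, anr-16, lies inside sdc-2 and was listed at 0 in all libraries.

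Per length of transcript the members stood in tiers. Levels between genes are compared here as CPM per kilobase of the longest annotated transcript. At the top was smc-4, at 68.2 ± 9.17 CPM per kb in ON and 69.6 ± 12.3 CPM per kb in OFF (SD, n = 5), above every other member in 10 of 10 libraries. The next were hcp-6, capg-1, capg-2 and kle-2, with means over all libraries of 41.1, 39.7, 37.8 and 37.5 CPM per kb. Within this tier the order changed between libraries, as hcp-6 exceeded capg-1 in 5 of 10 and capg-2 exceeded kle-2 in 5 of 10. Below them came dpy-28 and mix-1 at 28.8 and 27.4 CPM per kb, with dpy-28 the higher in 7 of 10 libraries, and then dpy-26 at 13.5 CPM per kb.

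The genes dpy-27 and sdc-2, the members that are not subunits of condensin I or condensin II, were far below this. In level per length dpy-27 was at 0.134 ± 0.0488 CPM per kb in ON and 0.785 ± 0.171 CPM per kb in OFF, and sdc-2 was at 0.0494 ± 0.00822 CPM per kb in ON and 0.0386 ± 0.0275 CPM per kb in OFF (SD, n = 5). Of the 6833 tested genes dpy-27 ranked 6692 in level per length and smc-4 ranked 873. In each library smc-4, which takes the place of DPY-27 in condensin I, was 389 to 858 times as abundant per length as dpy-27 in ON and 58.4 to 118 times as abundant in OFF. The ratio of the SMC genes smc-4 and mix-1, per length, was 2.54 ± 0.311 in ON and 2.49 ± 0.306 in OFF, with overlapping ranges.

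**Figure D2:**
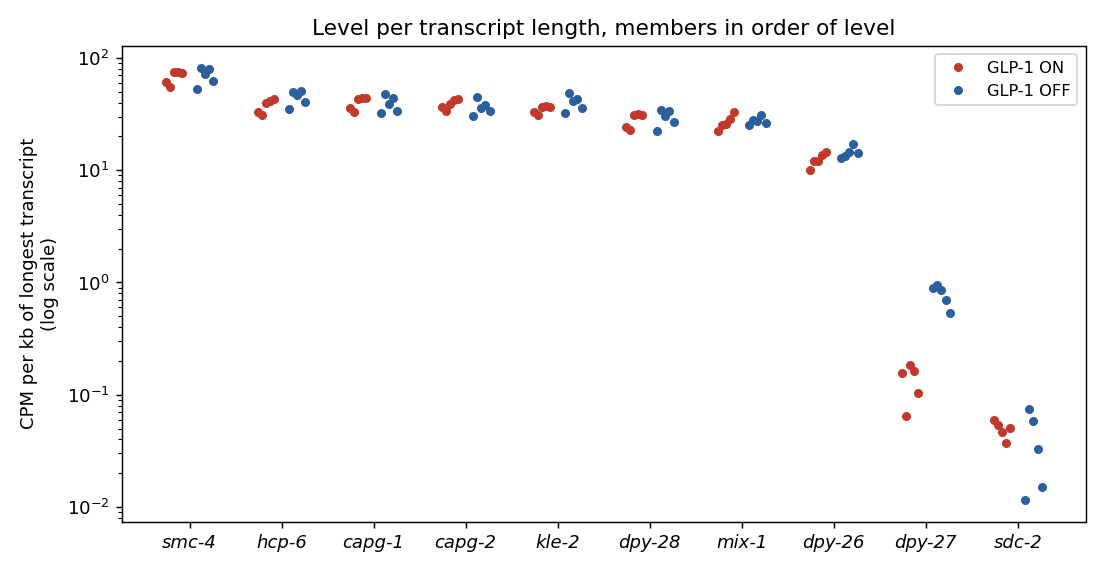
Level of each gene in CPM per kilobase of its longest transcript, on a log axis, in the 5 GLP-1 ON (red) and 5 GLP-1 OFF (blue) libraries, with genes in order of their mean. Of the 10 genes 8 lie between 9.998 and 82.1 CPM per kb in every library, and dpy-27 and sdc-2 lie under 1 CPM per kb in every library.

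The SMC genes of the mitotic complexes did not pass the test. For smc-4 (WBGene00004874, chromosome III, 4587501 to 4593124, plus strand) the level was 304, 275, 372, 373 and 365 CPM in ON against 259.5, 407, 355, 394 and 309.99 CPM in OFF, so OFF held the lowest and the highest library. Its log2 difference was -0.02 (95% interval -0.28 to 0.24, limma adjusted p = 0.932). For mix-1 (WBGene00003367, chromosome II, 10824246 to 10841424, plus strand) it was -0.05 (95% interval -0.27 to 0.18, adjusted p = 0.808), with 90.9 to 135 CPM in ON against 103 to 128 CPM in OFF.

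The subunits that condensin I shares with the dosage compensation form did not pass the test. The kleisin gene dpy-26 (WBGene00001085, chromosome IV, 12445801 to 12451335, minus strand) was at 42.4, 50.96, 51.1, 58.4 and 61.9 CPM in ON against 54.98, 56.4, 62.0, 72.6 and 60.6 CPM in OFF. The ON values lay lower but overlapped those of OFF. The log2 difference of -0.21 had a 95% interval of -0.44 to 0.02 (limma adjusted p = 0.192). The HEAT subunit genes dpy-28 (WBGene00001087, chromosome III, 10763131 to 10777076) and capg-1 (WBGene00009254, chromosome I, 7634492 to 7639785) had differences of -0.06 and 0.03 (adjusted p = 0.775 and 0.897). Ranges were 106 to 147 CPM in ON against 104 to 159.7 CPM in OFF for dpy-28, and 125 to 169.7 CPM in ON against 124 to 183 CPM in OFF for capg-1. The drop in dpy-27 was thus not accompanied by a call in any other subunit of condensin IDC.

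Condensin II subunits showed the widest spread of differences among the uncalled genes. The HEAT subunit gene hcp-6 (WBGene00001833, chromosome I, 5165148 to 5171313, plus strand) was at 174, 166, 212, 218 and 228 CPM in ON against 185, 266, 246, 271 and 215 CPM in OFF. The kleisin gene kle-2 (WBGene00016202, chromosome III, 7941717 to 7945593, plus strand) was at 91.7, 86.1, 100.05, 104 and 100.2 CPM in ON against 88.3, 134, 114, 118 and 99.6 CPM in OFF. In each gene the ON values lay lower with overlap. The log2 differences were -0.24 for hcp-6 (95% interval -0.49 to 0.01, limma adjusted p = 0.179) and -0.19 for kle-2 (95% interval -0.42 to 0.04, adjusted p = 0.258).

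The other HEAT subunit gene of condensin II, capg-2 (WBGene00010093, chromosome V, 12271873 to 12275658, plus strand), was at 108 to 137 CPM in ON against 96.1 to 145 CPM in OFF, with a log2 difference of 0.09 (95% interval -0.14 to 0.33, limma adjusted p = 0.606). The calls in condensin II depended on library scaling. With CPM recomputed outside rRNA genes, hcp-6 and kle-2 were called lower, at -0.23 (limma adjusted p = 0.021) and -0.18 (adjusted p = 0.029). Under that scaling 29.3% of 7559 tested genes were called, 11.5% higher and 17.8% lower. After TMM scaling, a trimmed-mean correction for composition, kle-2 was called at -0.14 (adjusted p = 0.041), and by edgeR at -0.15 (adjusted p = 0.039), but not by edgeR with no filter (-0.13, adjusted p = 0.212). Those fits called 34.8% (16.5% higher, 18.3% lower) and 34.9% (16.8% higher, 18.1% lower) of all tested genes. Without OFF replicate 1 hcp-6 was called, at -0.33 (limma adjusted p = 0.033), in a fit that called 21.5% of genes, 6.0% higher and 15.5% lower.

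**Figure D3:**
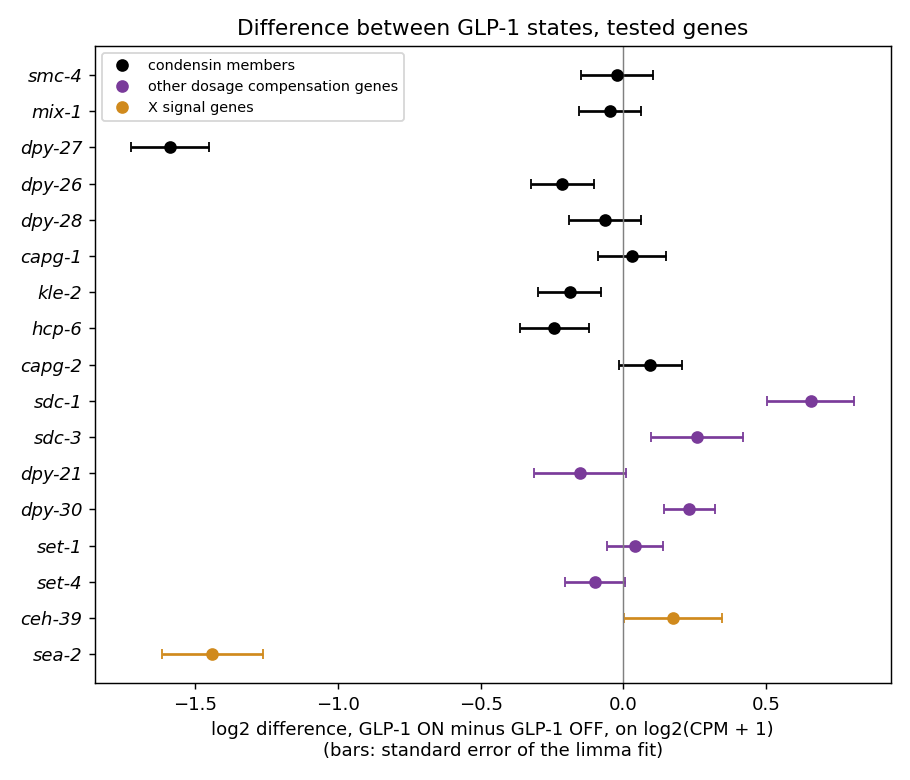
Log2 difference, GLP-1 ON minus GLP-1 OFF, on the log2(CPM + 1) scale for the 9 tested members (black), 6 other dosage compensation genes (purple) and 2 X signal genes (orange), with bars of 1 standard error from the limma fit. The points of dpy-27 and sea-2 lie at -1.59 and -1.44, sdc-1 lies at 0.66 and the others lie between -0.24 and 0.26.

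Over the 9 tested members 7 differences were below 0 and 2 above, with a median of -0.06, beside a median of -0.05 over all tested genes. Most of the 8 abundant members deviated alike from library to library. Deviations from the group means correlated with a median Pearson r of 0.91 over their 28 pairs, beside 0.77 over all pairs of tested genes at 40 CPM or more, and 0.62 beside 0.29 with CPM recomputed outside rRNA genes. Single pairs ranged from 0.36 to 0.99 on deposited CPM and from -0.36 to 0.98 outside rRNA genes. The 10 points of each r share library depth and composition. The sum of the 8 was 1206 ± 150 CPM in ON against 1272 ± 189 CPM in OFF (SD, n = 5). It was lowest, at 1015 CPM, in OFF replicate 1, the library with the highest rRNA share (50.8%), and highest, at 1465 CPM, in OFF replicate 2, the library with the lowest (38.96%). After CPM were recomputed outside rRNA genes the sum was 2173 ± 151 in ON and 2270 ± 155 in OFF, a spread that is smaller relative to the mean.

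Ratios between members do not depend on library scaling, and were compared for the 28 pairs of the 8 abundant genes as a description. For 6 of the 28 pairs, or 21.4%, the ON and OFF libraries did not overlap. Among all pairs of 2829 tested genes at a mean of at least 40 CPM this was so for 27.1%, so a share of this size is not particular to condensin genes. Each of the 6 pairs held hcp-6 or kle-2, and in each it was the gene that was lower relative to its partner in ON. These pairs were picked for their lack of overlap and share genes, so they are not independent. Other pairs with hcp-6 or kle-2 overlapped, such as mix-1 with hcp-6 and smc-4 with kle-2. Within condensin II, kle-2 stood to capg-2 at 0.898 ± 0.0335 in ON and 1.09 ± 0.0374 in OFF per length, and hcp-6 to capg-2 at 0.963 ± 0.0547 in ON and 1.22 ± 0.0940 in OFF (SD, n = 5).

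**Figure D4:**
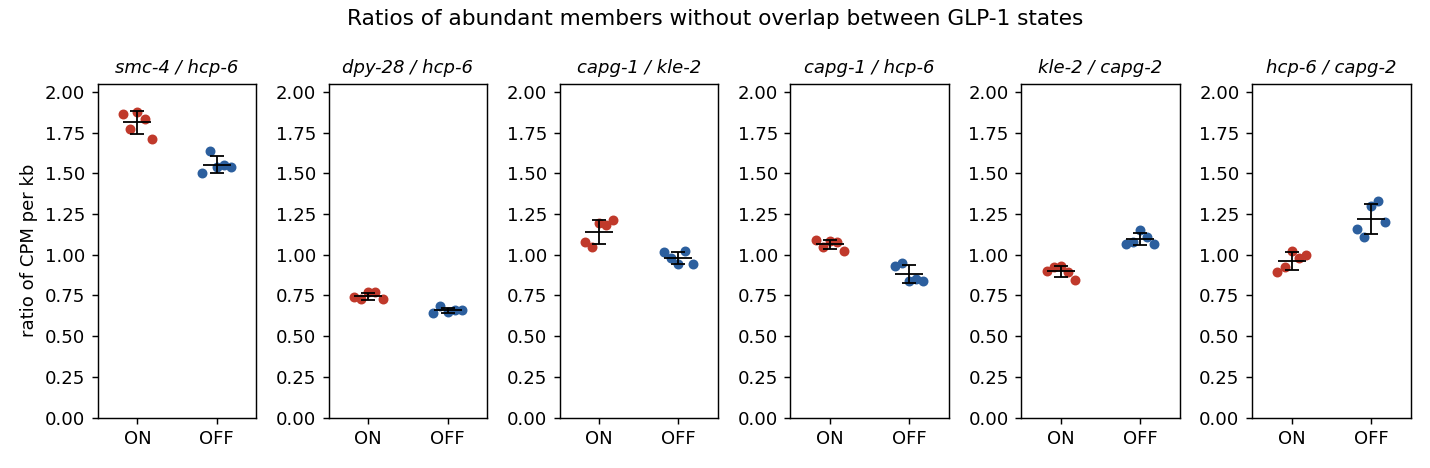
Ratio of CPM per kilobase of 2 members in each GLP-1 ON (red, left) and GLP-1 OFF (blue, right) library, with the mean and SD in black, for the 6 pairs of abundant members whose groups did not overlap. The ratio of smc-4 to hcp-6 is 1.71 to 1.88 in ON and 1.502 to 1.64 in OFF.

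Other genes of dosage compensation were present and mostly without a call. Of 6 further genes, all tested, 1 rose and 0 fell in ON, beside 6.7% higher and 12.4% lower over all tested genes. The count therefore says nothing particular about this list. The gene that rose was sdc-1 on X, which encodes a zinc finger protein of the dosage compensation complex, at 2.91 ± 0.805 CPM in ON against 1.49 ± 0.523 CPM in OFF (SD, n = 5; log2 difference 0.66, limma adjusted p = 0.0041). Its groups overlapped, and within the 3 runs of library numbers the difference was 0.999, 0.24 and 1.06. This direction is opposite to that of dpy-27.

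The other 5 of these genes did not pass. For sdc-3, another zinc finger gene of the complex, the level was 17.7 ± 5.52 CPM in ON against 14.2 ± 2.30 CPM in OFF, with a log2 difference of 0.26. It was called higher without ON replicate 2 (0.40, limma adjusted p = 0.040) and by edgeR with no filter (0.37, adjusted p = 0.0095). The H4K20 demethylase gene dpy-21 was at 43.4 ± 10.5 CPM in ON against 48.2 ± 11.1 CPM in OFF. The dpy-30 gene, whose product also serves in histone H3K4 methyltransferase complexes, was at 57.7 ± 3.01 CPM in ON against 49.1 ± 3.73 CPM in OFF (log2 difference 0.23, limma adjusted p = 0.081). It was called after TMM scaling, at 0.27 (adjusted p = 0.0011), and without OFF replicate 2 (adjusted p = 0.018). The H4K20 methyltransferase genes set-1 and set-4 had differences of 0.04 and -0.10.

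Genes that count X chromosomes against autosomes, and the switch gene they control, were mostly near 0, with sea-2 and ceh-39 as the exceptions. Of 7 genes 2 were tested, 0 rose and 1 fell, beside 6.7% higher and 12.4% lower over all tested genes. The switch gene xol-1 and the X signal genes sex-1 and fox-1 averaged under 0.14 CPM in each group, as did the autosomal signal gene sea-1 and her-1, a target of SDC-2. The gene that fell was sea-2, an autosomal signal gene, at 4.99 ± 1.80 CPM in ON against 15.1 ± 4.45 CPM in OFF (SD, n = 5; log2 difference -1.44, limma adjusted p = 5.1e-06). All its ON libraries were below all OFF libraries, and the difference was -1.504, -2.11 and -1.05 within the runs of library numbers. The X signal gene ceh-39 was at 1.74 ± 0.450 CPM in ON against 1.499 ± 0.716 CPM in OFF and was not called.

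Relatives and partners of condensin in mitosis were set beside all tested genes, of which 6.7% were called higher and 12.4% lower. After TMM scaling these shares were 16.5% and 18.3%. The counts on these short lists are too small to be read as a result about them. Of 7 tested cohesin and SMC-5/6 genes, 0 rose and 1 fell, with a median log2 difference of -0.23, and after TMM scaling 3 fell. The gene that fell was scc-3, a cohesin subunit, at 230 ± 24.2 CPM in ON against 299 ± 46.2 CPM in OFF (log2 difference -0.37, limma adjusted p = 0.030). That call was lost in 5 of the fits that left out 1 library, which were ON replicates 1 and 2 and OFF replicates 2, 3 and 4 (adjusted p up to 0.078), and with no filter (adjusted p = 0.085). Of 12 regulators of chromosome condensation and segregation, 0 rose and 1 fell, with a median of -0.05, and after TMM scaling 1 rose and 4 fell. The call was cdk-1, the mitotic kinase that phosphorylates condensin, at 103 ± 11.2 CPM in ON against 139 ± 9.16 CPM in OFF (log2 difference -0.43, adjusted p = 0.0029). Aurora B, encoded by air-2, which is needed to load condensin I on mitotic chromosomes, was at 56.6 ± 3.28 CPM in ON against 63.1 ± 5.09 CPM in OFF and was not called. Topoisomerase II (top-2) was at 643 ± 89.3 CPM in ON against 812 ± 127 CPM in OFF, with a log2 difference of -0.33 and an adjusted p of 0.062.

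Since X is the target of condensin IDC in somatic cells, X-linked genes were set beside autosomal ones, with no test. Of protein-coding genes 6.61% on X and 36.1% on autosomes were expressed at a testable level. The median log2 difference was 0.02 over 211 tested genes on X and -0.05 over 6597 on autosomes. On X 34 genes (16.1%) were called higher and 21 (9.95%) lower in ON. On autosomes 420 (6.37%) were called higher and 826 (12.5%) lower. After TMM scaling the counts on X were 41 (19.4%) higher and 20 (9.48%) lower. On autosomes they were 1082 (16.4%) higher and 1228 (18.6%) lower, so the balance on autosomes depends on scaling. Tested genes on X had a median level of 1.08 CPM per kb, against 23.1 CPM per kb on autosomes. The added 1 CPM draws differences of low genes towards 0. The per-library median of X relative to autosomes ran between -0.06 and 0.21 in ON and between -0.11 and 0.08 in OFF, so the groups overlapped.

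Marker genes of other cell types were examined beside dpy-27, because dpy-27 acts in somatic cells. Of 4 tested somatic gonad markers out of 7, 0 were higher and 1, the sheath gene lim-7, was lower in ON, at 1.15 ± 0.190 CPM in ON against 1.77 ± 0.333 CPM in OFF (limma adjusted p = 0.033), and after TMM scaling 3 were lower. Over all tested genes 12.4% were lower, and 18.3% after TMM scaling. Leaving out any of ON replicates 1, 2 and 3 or of OFF replicates 2, 3 and 5 ended the lim-7 call (adjusted p up to 0.094), as did leaving out the filter (adjusted p = 0.081). Summed somatic gonad markers were at 1582 to 2247 CPM in ON against 1291 to 2004 CPM in OFF, nearly all from fln-1, and the distal tip cell gene lag-2 averaged 0.0349 CPM in ON against 0.105 CPM in OFF.

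Markers of tissues outside the gonad were low. The 8 intestine markers summed to 1.18 to 4.33 CPM in ON against 1.35 to 11.99 CPM in OFF, and those of muscle and pharynx to 10.4 to 27.3 CPM in ON against 13.1 to 24.7 CPM in OFF. The 8 epidermis markers summed to 19.2 to 28.3 CPM in ON against 24.98 to 37.0 CPM in OFF, with col-10 at 0 throughout, and the 8 neuron markers to 23.3 to 31.6 CPM in ON against 23.9 to 56.3 CPM in OFF. Of the tested genes on these lists, 1 for intestine, 4 for muscle and pharynx, 2 for epidermis and 1 for neurons, 0 were called by limma. At an unadjusted p under 0.05 there was 1 for muscle and pharynx and 1 for epidermis, and the edgeR test called 1, for epidermis. After TMM scaling lin-26 was called lower in ON (-0.28, limma adjusted p = 0.0091), beside 18.3% lower over all tested genes. The part of any of these cells in the dpy-27 difference was not tested.

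Most meiotic prophase genes on the list were lower in ON, as dpy-27 was. Of 20 such genes, all tested, 13 were lower and 0 higher in ON, with a median log2 difference of -0.39, beside 12.4% lower and a median of -0.05 over all tested genes. The other 7 were not called and 3 of them lay above 0, of which him-8, an X chromosome pairing gene, was at 0.16 and was called higher after TMM scaling (0.20, limma adjusted p = 0.030). Among the lower genes were the chromosome axis genes him-3, at 44.4 ± 3.20 CPM in ON against 75.8 ± 4.91 CPM in OFF, and htp-3, at 113 ± 12.6 CPM in ON against 199 ± 23.3 CPM in OFF (SD, n = 5; log2 differences -0.76 and -0.81, limma adjusted p = 3.6e-06 and 1.3e-05). The synaptonemal complex gene syp-1 and the checkpoint kinase gene chk-2 had differences of -0.76 and -0.49. Also lower were htp-1, htp-2, syp-2, syp-4, coh-3, coh-4, zim-2, dsb-1 and dsb-2, of which coh-3, syp-2 and zim-2 lost the call in 7, 3 and 2 of the fits that left out 1 library. These 3 genes also lost it with library number run as a block (adjusted p = 0.079, 0.082 and 0.089) and with no filter (adjusted p = 0.080, 0.058 and 0.058). The summed level of the 20 genes was 924 to 1120 CPM in ON against 1235 to 1591 CPM in OFF. One germ cell marker of 10, the RNA helicase gene cgh-1, was also lower, at 195 ± 40.4 CPM in ON against 305 ± 56.6 CPM in OFF (log2 difference -0.65, limma adjusted p = 0.0025). Whether the stage of the germ cells bears on dpy-27 was not tested.

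The genes whose log2 levels followed dpy-27 most closely over the 10 libraries were his-32, his-2 and sop-2, with Pearson r of 0.984, 0.977 and 0.976. All of them stand apart between the groups as dpy-27 does, so the points share that difference. The histone genes his-32 and his-2 belong to families of near-identical copies, and their separate values are uncertain. For his-32 the level was 5.08 ± 0.989 CPM in ON against 31.8 ± 4.01 CPM in OFF, and for his-2 it was 0.140 ± 0.117 CPM in ON against 7.05 ± 1.98 CPM in OFF. The Polycomb-related gene sop-2 was at 0.527 ± 0.199 CPM in ON against 3.81 ± 0.959 CPM in OFF (SD, n = 5), close to dpy-27 in level as well. Its log2 difference was -1.64 (limma adjusted p = 3.1e-08). Like dpy-27, sop-2 and his-2 averaged under 1 CPM in ON, so the level filter had a part in their calls too. The genes nearest to smc-4 were athp-2, C07H6.4 and F19F10.11 (r of 0.994, 0.994 and 0.993), and those nearest to mix-1 were F55F10.1, the ubiquitin ligase gene eel-1 and C25H3.8 (r of 0.970, 0.947 and 0.938). None of these 6 was called. The median r of dpy-27 with the other 8 members was 0.17.

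The neighbours of dpy-27 on its strand were too low to test. The gene toh-1 on the 3' side averaged 0.307 CPM in ON against 0.339 CPM in OFF, the non-coding RNA R13G10.5 on the 5' side was at 0 in all libraries, and no annotated gene overlaps dpy-27. Among tested same-strand neighbours of uncalled members, F26A3.1 and spe-44 were called, beside 19.1% called in either direction over all tested genes. Not called were F35G12.5, F35G12.11, ech-4, cap-2, K01G5.9, C29E4.12, npp-6, F55C5.2 and C25G4.3. After TMM scaling K01G5.9 (-0.15, limma adjusted p = 0.024) and ech-4 (0.23, adjusted p = 0.016) were called. These calls are not read as a result about the neighbours. Upstream of capg-1, at a distance of 562 bases, F26A3.1 was at 23.9 ± 2.10 CPM in ON against 35.5 ± 4.32 CPM in OFF (SD, n = 5; log2 difference -0.55, limma adjusted p = 4.6e-04). Upstream of dpy-26, at a distance of 727 bases, the spermatogenesis regulator gene spe-44 was at 13.5 ± 0.7104 CPM in ON against 17.8 ± 2.21 CPM in OFF (log2 difference -0.37, adjusted p = 0.010, and 0.053 with library number run as a block), while C25G4.3 on the other side was not called.

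Overlapping annotations affect several members, since nothing used here states whether counting took strand into account. The hcp-6 gene overlaps 39 bases of spd-5 on the opposite strand, which was at 412 ± 52.4 CPM in ON against 426 ± 57.5 CPM in OFF and not called. The overlapping M106.8 (opposite strand, 43 bases) and the snoRNA gene M106.6 inside mix-1 were at 4.06 and 0.764 CPM in ON against 5.49 and 1.35 CPM in OFF and were called lower (limma adjusted p = 0.016 for each). The M106.6 call was lost without ON replicate 3 (adjusted p = 0.055), and the M106.8 call by edgeR with no filter (adjusted p = 0.087). The longest overlap with mix-1, 1494 bases on the opposite strand, is with VM106R.1, at 2.82 ± 0.409 CPM in ON against 3.19 ± 0.535 CPM in OFF and not called. Genes that overlap kle-2 and capg-2 on the opposite strand, gsto-1 and bnc-1, averaged under 0.21 CPM in each group.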

How the data were processed

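Total RNA was depleted of ribosomal RNA and made into libraries with the Kapa hyper prep kit, per the labels' protocols. STAR 2.0.4b, Subread featureCounts 1.4.5, limma and edgeR are named in the submitters' processing notes. Genome build, annotation, strand use and multiply mapped reads were not given in the sources used here. As deposited, the signal values are CPM per gene for 10 libraries. Without 462 repeated rows 46536 genes were left. Division by the smallest value above 0 gave whole reads for 100% of values within 0.01 read, which sets depth and allowed a count test.

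Groups and replicate numbers come from the sample titles. Genes at 1 CPM or more in at least 5 libraries (6833) were fitted in R 4.3.3 with limma 3.58.1 and a variance trend on log2(CPM + 1). P-values are two-sided and adjusted by Benjamini-Hochberg over all tested genes, with calls under 0.05. Fits were tested on simulated counts for this comparison, in which limma recovered 96.3% of genes changed by 1 and 100% of those changed by 2 on the log2 scale, among 6833 genes, and 6.91% of its calls were false (7.34% for edgeR). The simulated libraries did not differ in rRNA share, unlike the real ones, so these values may overstate recovery in the data. Alternatives were pseudocounts of 0.25 and 5 CPM, no filter, a filter at 5 CPM, TMM scaling, CPM outside 22 rRNA genes, edgeR 4.0.16 on recovered reads, replicate number or library number run as a block, and each library left out. An edgeR fit with no filter was added after the data were seen. Positions and lengths are from the Ensembl 115 annotation of WBcel235, matched by gene identifier (46363 genes). The members and gene lists were chosen with earlier results of these data known. Named genes are all members, called genes of each list and all further dosage compensation genes. Also named are nearest same-strand neighbours that were tested or lie beside dpy-27, and the 3 genes closest to smc-4, mix-1 and dpy-27 by Pearson r. Overlapping genes, and examples among uncalled or untested list genes, were named after their values were seen.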

Additional observations from a re-analysis of the deposited data

How the results depend on the processing

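The dpy-27 call kept its direction and stayed past the threshold in every fit that tested it, with differences from -1.69 to -1.50 when 1 library was left out. With a filter at 5 CPM dpy-27 is not tested and 0 of 8 tested members were called by limma, with 0 at an unadjusted p under 0.05. The number of called members was 1 in the reported fit, 2 after TMM scaling, 3 with scaling outside rRNA genes, 2 by the edgeR test, and 1 to 2 when 1 library was left out. The added calls were kle-2 after TMM scaling (-0.14), outside rRNA genes (-0.18) and by edgeR (-0.15), and hcp-6 outside rRNA genes (-0.23) and without OFF replicate 1 (-0.33). Members near 0 changed sign. For smc-4 this was so after TMM scaling (0.0225), by edgeR (0.0217) and by edgeR with no filter (0.0359), for mix-1 by edgeR (0.0036, and 0.0183 with no filter), and for capg-1 with library number run as a block (-0.0169). When 1 library was left out, differences ran from -0.12 to 0.0501 for smc-4, -0.12 to 0.0184 for mix-1, -0.16 to 0.0083 for dpy-28, -0.0353 to 0.10 for capg-1 and -0.33 to -0.18 for hcp-6. The sdc-2 difference was 0.12 on the log2(CPM + 1) scale and 0.42 by edgeR with no filter (adjusted p = 0.470). Medians on X and on autosomes moved by less than the spread between libraries after TMM scaling and outside rRNA genes.

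Replicate numbers were not used to pair the libraries in the reported fit, since no pairing is stated. Deviations of same-numbered libraries correlated at -0.02 to 0.46. ON replicates 1, 4 and 5 correlated best with the OFF library of their own number, and ON replicates 2 and 3 did not. These values do not settle whether the libraries are paired. With the replicate block 1545 genes were called in all, beside 1305 without it, with dpy-27 at -1.59 (limma adjusted p = 3.2e-09) and 1 member called. Counting error limits dpy-27 and sdc-2, with at most 118 reads in a library, more than it does the other members.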
